A study of Mus musculus with 10 samples.

Results

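The importin alpha and beta genes measured here were Kpna1, Kpna2, Kpna3, Kpna4, Kpna6 and Kpna7, which encode importin alpha proteins, and Kpnb1, which encodes importin beta. They were chosen by name. Their Ensembl transcripts were mapped to gene symbols and summed, which gave 7 genes of 35501 summed in all. The libraries were made from single mouse oocytes with Smart-seq2, a full-length cDNA amplification method for single cells. Fully grown germinal vesicle oocytes of ICR mice aged 6 to 8 weeks were taken from the ovary and matured in vitro for 16 h at 37 °C under 5% CO2 to metaphase II, the stage at which the egg waits for fertilization. The TubA group had 5 libraries from oocytes given TubA at 0.1 µg/mL for the 16 h, and the control group had 5 libraries from oocytes of the same strain and culture labelled control. TubA is a common abbreviation of tubastatin A, which inhibits HDAC6, a deacetylase that acts on tubulin, but the labels do not spell it out, and they do not name a vehicle for the control. The labels name no animal or culture for any library, so the p-values measure only the spread between libraries, which may be technical.

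Importin alpha proteins bind the nuclear localization signal of a cargo protein and, through another part of the protein, importin beta, which carries the complex through the nuclear pore. Inside the nucleus the small GTPase Ran in its GTP form releases the cargo, and the exportin Cse1l returns importin alpha to the cytoplasm. During division, when there is no nuclear envelope, the same proteins hold spindle assembly factors such as Tpx2 until Ran near the chromosomes frees them. The mammalian importin alpha genes fall into 3 subfamilies, Kpna1 with Kpna6, Kpna3 with Kpna4, and Kpna2 with Kpna7, and Kpna7 is known as the form of the oocyte and early embryo.

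The coding sequences of the members, read from the GRCm38 gene models, followed these subfamilies unevenly. Kpna3 and Kpna4 were identical at 74.97% of aligned bases and Kpna1 and Kpna6 at 73.9%. Kpna7 and Kpna2 were identical at only 60.4%, within the 56.8% to 62.5% of the alpha genes of different subfamilies. The longest stretch shared by Kpna7 and Kpna2 was 14 bases, so a read of ordinary length from one would differ from the other. Kpna2 had much closer relatives outside the 7 members. Of its 2922 distinct 31-base words, 66.0% also occurred in other listed genes, whereas this was 3.10% for Kpna7 and less than that for each of the other 5 members. Gm10259, annotated as a processed pseudogene with 1 exon (chr3:25211016-25212605, minus strand, GRCm38), held 50.2% of those words. Gm10184, a gene of 1 exon annotated as protein coding in GENCODE M21 and as a pseudogene in RefSeq (chr17:89908462-89910449, minus strand), held 64.2%. Gm12919, another processed pseudogene (chr4:10853843-10855436, plus strand), held 21.1%. These 3 are called the copies of Kpna2 here. Med20, which is not counted among them, held 10.4% on the opposite strand and averaged 228 TPM over the libraries.

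The closeness of the copies bears on every Kpna2 value, so the stretch with the most differences between Kpna2 and Gm10259 is shown. Over 1590 coding bases without a gap the genes differed at 3, C90T, A696G and C741T, where the base of Kpna2 comes first and positions are counted from 1 at the A of the start codon. The window runs from coding base 682 to 741, 5′ to 3′, and capitals mark its 2 differences. It lies in exon 7 of Kpna2 at chr11:106991258-106991317, and in Gm10259 at chr3:25211865-25211924, both on the minus strand of GRCm38.
Kpna2: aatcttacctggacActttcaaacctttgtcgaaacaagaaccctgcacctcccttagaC
Gm10259: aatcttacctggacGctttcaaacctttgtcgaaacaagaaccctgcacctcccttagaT
The longest stretch without a difference was 849 bases. Gm10184 was closer still, at 99.9% of coding bases.

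The other sequences of interest are exons that tell annotated transcripts apart. Kpna7-202 holds a coding exon that is not in Kpna7-203 or Kpna7-201, the seventh of its 14 exons, at chr5:145002346-145002408 on the minus strand of GRCm38.
Kpna7-202 exon 7: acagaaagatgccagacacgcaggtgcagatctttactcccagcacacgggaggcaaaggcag
Its 63 bases account for the difference between the coding lengths of 1563 bases in Kpna7-202 and 1500 bases in Kpna7-203. Kpna2-201, the transcript that encodes the full protein, holds a coding exon that is skipped in Kpna2-206, a transcript annotated for nonsense-mediated decay. This is its exon 4, at chr11:106992603-106992691 on the minus strand.
Kpna2-201 exon 4: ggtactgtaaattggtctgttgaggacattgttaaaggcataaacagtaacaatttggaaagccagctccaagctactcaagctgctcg
The same 89 bases occurred with 0 mismatches in Gm10259 at chr3:25212304-25212392 and in Gm10184 at chr17:89910015-89910103, so a read within this exon cannot tell Kpna2 from those copies.

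All values are TPM, which are scaled for transcript length and to a fixed sum in every library. Levels are compared between genes as TPM, and numbers of molecules were not measured. TPM does not hold the number of reads, so sequencing depth is unknown here and counting error cannot be given. The libraries were those of oocytes by their markers. The growth factor Gdf9 averaged 6343 ± 845 TPM in TubA oocytes and 5587 ± 812 TPM in control oocytes, Zp3 of the egg coat 2809 ± 3082 TPM in TubA oocytes and 2592 ± 1990 TPM in control oocytes, and the kinase Mos 352 ± 71.2 TPM in TubA oocytes and 310 ± 38.9 TPM in control oocytes (SD, n = 5 each). The 8 oocyte markers summed to 15020 to 26560 TPM in TubA libraries and 10890 to 24210 TPM in control libraries. The 10 markers of cumulus and granulosa cells, which surround the oocyte, summed to 10.4 to 19.9 TPM in TubA libraries and 8.88 to 15.1 TPM in control libraries. Of their defining markers, Amh was at 0 in all 10 libraries, Fshr and Inha reached at most 0.863 and 1.32 TPM, and Cyp19a1 averaged 12.6 ± 3.79 TPM in TubA oocytes and 10.5 ± 2.60 TPM in control oocytes (SD, n = 5 each). The libraries were clustered by their correlations over genes that averaged 1 TPM or more, and the tree was cut into 2 sets, a number set beforehand. Set A held TubA replicates 1 and 2 and control replicates 1 to 3. Set B held TubA replicates 3 to 5 and control replicates 4 and 5. The labels give no batch for these sets.

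Kpna7 was the most abundant importin gene in every library when Kpna2 was counted without its copies, and was above Kpna2 with its copies in 5 of 10 libraries. No importin gene tested differed between TubA and control oocytes beyond the spread between libraries. Of the 7 members, 5 reached the mean of 1 TPM required for testing, and Kpna1 and Kpna4 did not. With limma on log2(TPM + 1) over 11664 genes, none of the 5 had an adjusted p under 0.05, and the background was 0.00857% of all genes tested, or 1 gene. None had an unadjusted p under 0.05 either, against a background of 2.51%. The TubA and control values overlapped for all 7 members, and 0.454% of the genes tested had groups that did not overlap. The median log2 difference, TubA minus control, was -0.09 over the 5 members tested and 0.01 over all genes tested.

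**Figure D1:**
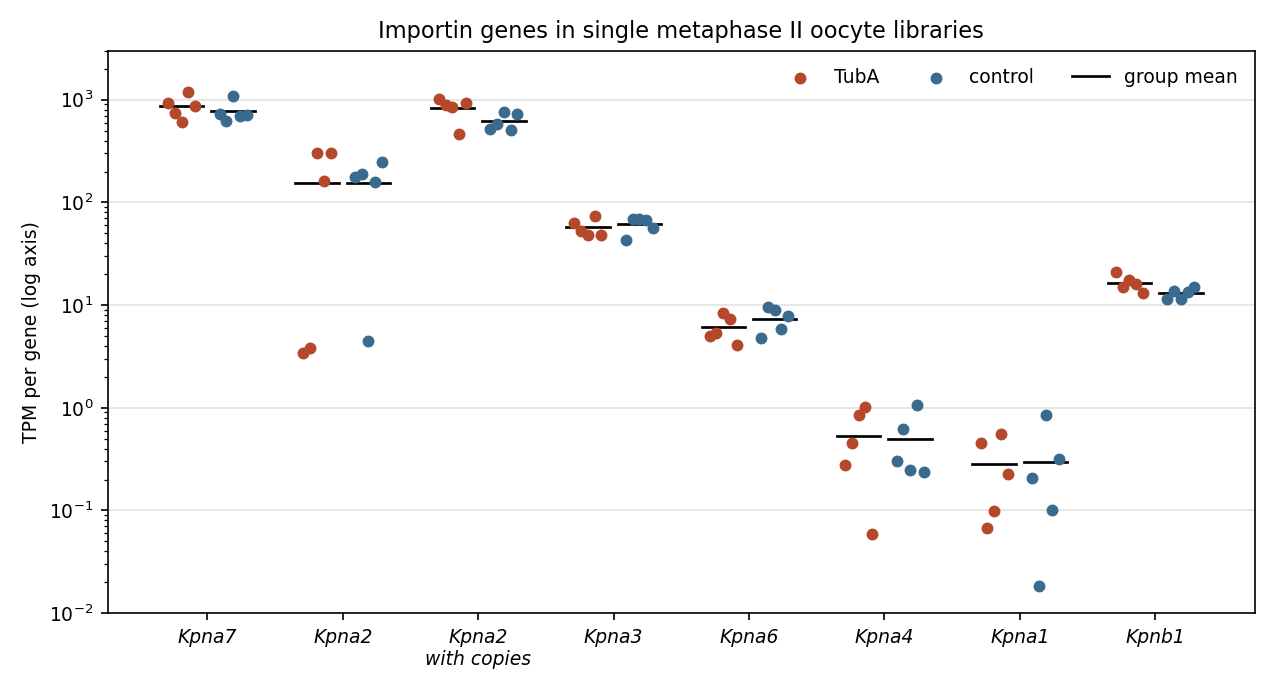
TPM of each importin gene on a log axis, with 1 point per library (5 TubA and 5 control libraries) and a bar at each group mean; Kpna2 is drawn alone and summed with its copies. Kpna7 lies between 609 and 1202 TPM in every library, Kpna2 alone splits into 7 libraries at 159 TPM or more and 3 at 4.45 TPM or less, and the sum with its copies does not split.

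Kpna7 (ENSMUSG00000038770, chr5:144983519-145084030, minus strand) is the importin alpha gene known as the form of the oocyte and early embryo. Its level was 936, 735, 609, 1202 and 871 TPM in TubA replicates 1 to 5, and 731, 627, 1099, 701 and 706 TPM in control replicates 1 to 5. The highest library was a TubA one, but the lowest was too, and the whole control range lay inside the TubA range. The means were 870 ± 224 TPM in TubA oocytes and 773 ± 186 TPM in control oocytes (SD, n = 5 each). The log2 difference was 0.16 with a standard error of 0.21 (limma, adjusted p = 0.9999). Its 95% interval ran from -0.29 to 0.61, or from 0.818-fold to 1.53-fold, and differences within those bounds were compatible with these values. Kpna7 ranked 162 of 35501 genes by mean TPM.

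The Kpna7 signal was listed mainly under the same 2 transcripts in all libraries, with Kpna7-203 the larger. Kpna7-203, a model of 10 exons that covers coding sequence alone, held 68.6 ± 2.71% of Kpna7 TPM in TubA oocytes and 72.1 ± 4.30% in control oocytes. Kpna7-202, with 14 exons and the exon shown above, held 30.9 ± 2.61% in TubA oocytes and 26.5 ± 5.51% in control oocytes (SD, n = 5 each). Over all 10 libraries the share of Kpna7-203 stayed between 65.7% and 78.2%, and that of Kpna7-202 between 20.4% and 33.5%. Kpna7-201, which starts at chr5:145009633, carried 0.310% of the mean and exceeded 2 TPM in 1 library, control replicate 2, at 21.4 TPM. Kpna7-206, whose model reaches far upstream to chr5:145084030, was at most 0.544 TPM.

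RefSeq (GRCm38.p6) has a promoter window, 250 bases before to 50 after the annotated start, for 4 of the 7 members, Kpna2, Kpna4, Kpna7 and Kpnb1. The window of Kpna7 is shown because this gene alone of the 4 held the letters CANNTG, known as the E-box, which the oocyte factor Figla binds with its partners. It lies at chr5:145009587-145009886 on the minus strand, next to the start of Kpna7-201 and downstream of the start of the more abundant Kpna7-202 at chr5:145010643, and capitals mark the 3 matches.
Kpna7 promoter: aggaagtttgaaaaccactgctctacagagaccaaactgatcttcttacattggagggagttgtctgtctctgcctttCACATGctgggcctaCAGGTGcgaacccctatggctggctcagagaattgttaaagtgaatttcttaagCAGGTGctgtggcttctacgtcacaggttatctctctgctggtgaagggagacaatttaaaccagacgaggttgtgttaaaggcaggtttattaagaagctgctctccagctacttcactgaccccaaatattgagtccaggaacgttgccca
Of 32851 promoter windows in the table, 72.3% held CANNTG on either strand, with a median of 1 match. The letters TAATTG, bound by homeobox factors of the oocyte such as Nobox, occurred in 8.0% of windows and in none of the 4. A match describes the letters in this window and is not a site.

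**Figure D2:**
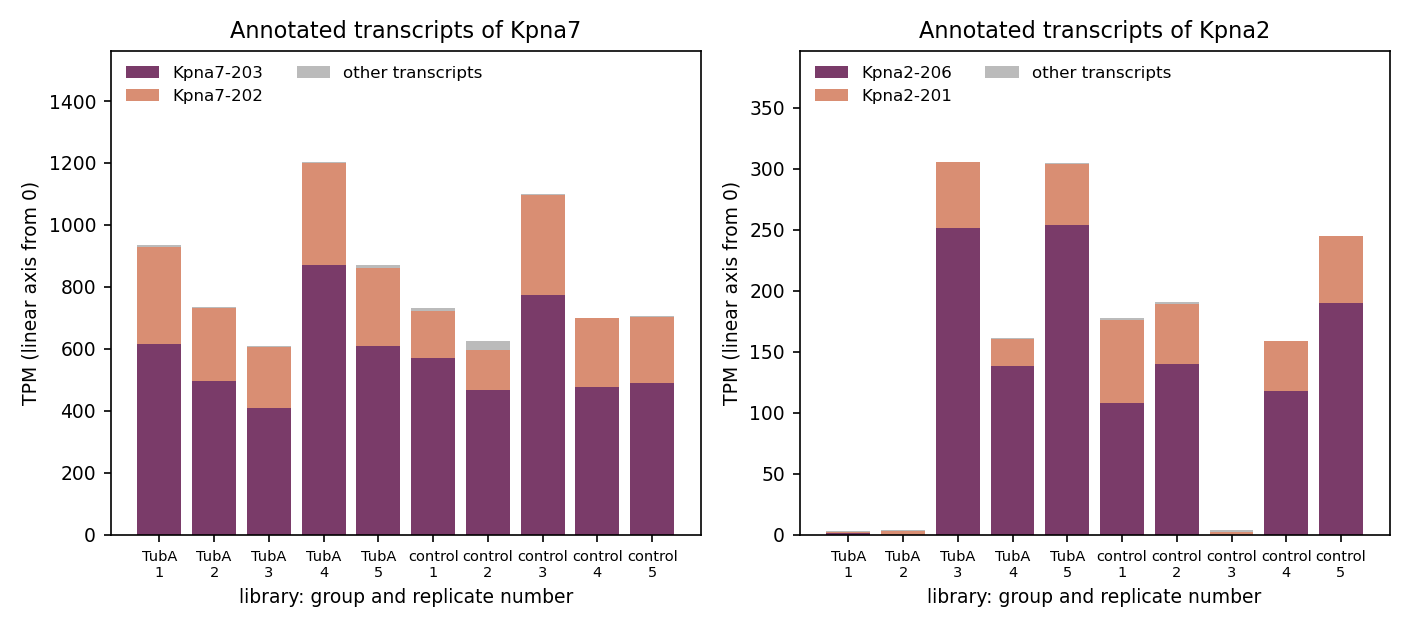
TPM of the annotated transcripts of Kpna7 (left) and Kpna2 (right) stacked per library, TubA replicates 1 to 5 and then control replicates 1 to 5, on linear axes from 0. Kpna7-203 and Kpna7-202 make up nearly all of Kpna7 in each library, whereas Kpna2-206 is the larger part of Kpna2 in the 7 libraries where the gene is high, and Kpna2 is near 0 in TubA replicates 1 and 2 and control replicate 3.

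Kpna2 (ENSMUSG00000018362, chr11:106988629-106999541, minus strand) encodes the importin alpha that is abundant in dividing cells. It was listed at 3.43, 3.79, 305, 161 and 304 TPM in TubA replicates 1 to 5, and at 178, 190, 4.45, 159 and 245 TPM in control replicates 1 to 5. Replicates 1 and 2 of TubA and replicate 3 of control were low, and the other 7 libraries were high, with nothing in between. The highest library was 89.0-fold above the lowest. The group means were close, at 156 ± 151 TPM in TubA oocytes and 155 ± 90.3 TPM in control oocytes (SD, n = 5 each). The log2 difference of -0.90 had a standard error of 1.43 and a 95% interval from -4.002 to 2.20 (limma, adjusted p = 0.9999). Differences in Kpna2 alone within those wide bounds were compatible with these values. The 3 low libraries all lay in set A. Within set A the log2 difference was -3.63, with a 95% interval from -6.97 to -0.29 (limma, unadjusted p = 0.0367, adjusted p = 0.9999). Within set B it was 0.32, with a 95% interval from -0.52 to 1.16. The difference between the sets had an adjusted p of 1 (limma, unadjusted p = 0.0446).

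Gm10259 and Gm10184 were highest in the libraries in which Kpna2 was low. Gm10259 was listed at 995, 867, 553, 304 and 615 TPM in TubA replicates 1 to 5, and at 345, 395, 752, 348 and 485 TPM in control replicates 1 to 5. Its 3 highest libraries were the 3 in which Kpna2 was low. Gm10184 was at 11.01, 13.1, 0, 0 and 0.162 TPM in TubA replicates 1 to 5, and at 0, 0, 4.26, 0.158 and 0 TPM in control replicates 1 to 5, again with its values above 1 TPM in those 3 libraries. Gm12919 was listed above 0 in TubA replicate 4 alone, where Kpna2 was high, at 0.0388 TPM. Kpna2 made up 0.340%, 0.428%, 35.5%, 34.6% and 33.1% of the sum of Kpna2 and its copies in TubA replicates 1 to 5, and 34.02%, 32.5%, 0.585%, 31.3% and 33.6% in control replicates 1 to 5. The share was therefore either under 1% or between 31.3% and 35.5%. Whether this split arose in the oocytes or in how reads were assigned among near-identical sequences was not tested.

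**Figure D3:**
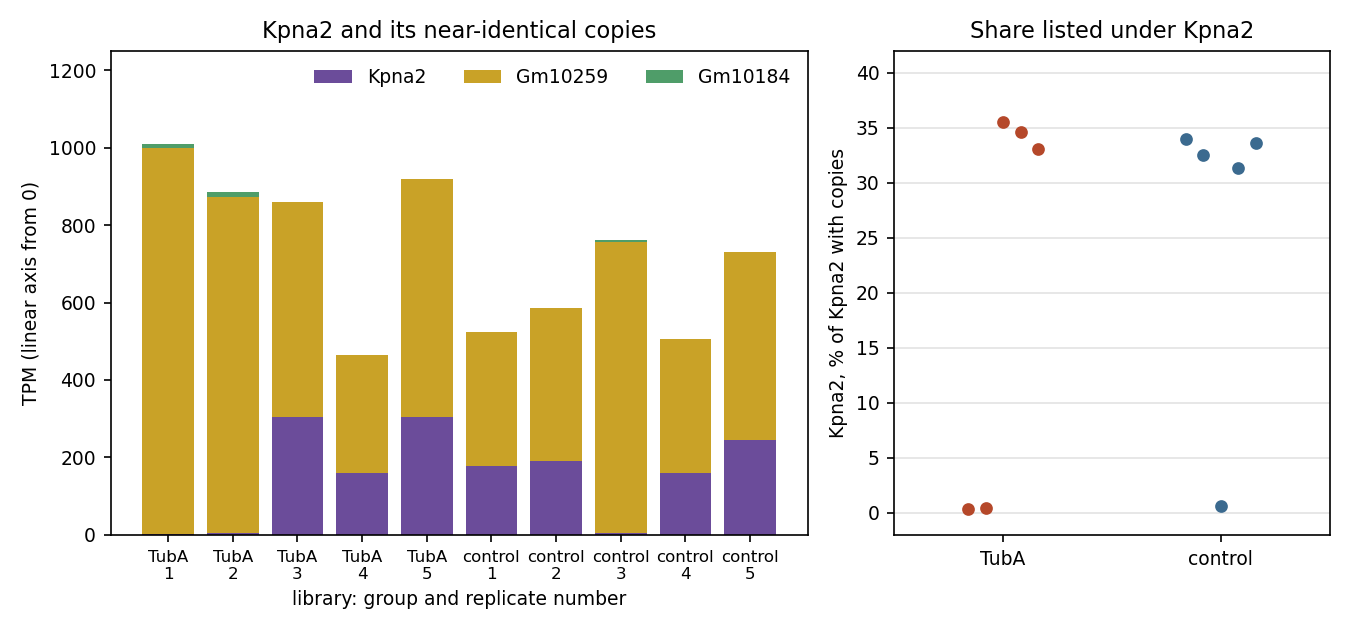
Left, TPM of Kpna2, Gm10259 and Gm10184 stacked per library on a linear axis from 0, TubA replicates 1 to 5 and then control replicates 1 to 5; right, Kpna2 as a percentage of the sum of Kpna2 and its copies, with 1 point per library. The share lies between 31.3% and 35.5% in 7 libraries and under 1% in TubA replicates 1 and 2 and control replicate 3, while the stacked sums stay within 2.17-fold.

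Summed with its copies, Kpna2 no longer split. The sum was 1010, 884, 859, 465 and 919 TPM in TubA replicates 1 to 5, and 523, 586, 761, 507 and 730 TPM in control replicates 1 to 5. Of the TubA libraries, 4 lay above all control libraries, and TubA replicate 4 lay below them all. The means were 828 ± 210 TPM in TubA oocytes and 621 ± 118 TPM in control oocytes (SD, n = 5 each, exact two-sided permutation p = 0.0873). On the log2 scale the difference was 0.38 with a standard error of 0.22 and a 95% interval from -0.09 to 0.86 (limma, adjusted p = 0.9999), and so had the opposite sign to that of Kpna2 alone. The difference in Gm10259 by itself, 667 ± 272 TPM in TubA oocytes and 465 ± 170 TPM in control oocytes, had an exact two-sided permutation p of 0.1905 (SD, n = 5 each).

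Of the TPM listed under Kpna2, the decay-annotated transcript carried most in the 7 libraries where the gene was high. Exon 4, which Kpna2-201 holds and Kpna2-206 skips, occurs with 0 mismatches in Gm10259 and Gm10184. How its reads were assigned was not tested, so the shares below describe the listed TPM and leave the makeup of Kpna2 RNA uncertain. Kpna2-206 was at 1.52, 0.131, 251, 138 and 254 TPM in TubA replicates 1 to 5, and at 108, 140, 0.104, 118 and 190 TPM in control replicates 1 to 5. Kpna2-201 was at 1.17, 3.39, 54.1, 22.2 and 50.5 TPM in TubA replicates 1 to 5, and at 67.8, 49.7, 2.20, 40.8 and 54.7 TPM in control replicates 1 to 5. Both transcripts were low in the same 3 libraries, and Kpna2-206 made up 77.2% of the mean level of the gene. Averaged over libraries its share was 59.8 ± 35.9% in TubA oocytes and 57.7 ± 31.6% in control oocytes (SD, n = 5 each), and in TubA replicate 2 and control replicate 3 it was below Kpna2-201. Gm10184 held 93.3% of the 31-base words of Kpna2-206 and 92.7% of those of Kpna2-201, and Gm10259 held 74.5% and 72.5%.

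Kpna3 and Kpna4 form the next pair, 1 of them well expressed and the other nearly silent. Kpna3 (ENSMUSG00000021929, chr14:61365211-61439874, minus strand) was at 62.6, 52.1, 48.7, 74.5 and 48.5 TPM in TubA replicates 1 to 5, and at 43.2, 69.2, 69.7, 68.1 and 56.0 TPM in control replicates 1 to 5. The groups overlapped over most of their range, with means of 57.3 ± 11.2 TPM in TubA oocytes and 61.2 ± 11.6 TPM in control oocytes (SD, n = 5 each). Its log2 difference was -0.09, with a standard error of 0.20 and a 95% interval from -0.54 to 0.35 (limma, adjusted p = 0.9999). The whole signal was listed under Kpna3-201. Kpna4 (ENSMUSG00000027782, chr3:69067149-69127113, minus strand) averaged 0.534 ± 0.399 TPM in TubA oocytes and 0.497 ± 0.353 TPM in control oocytes (SD, n = 5 each), with a range over all libraries of 0.0596 to 1.06 TPM. It was not tested at this level.

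Kpna6 and Kpna1, the remaining pair, were both low. Kpna6 (ENSMUSG00000003731, chr4:129643980-129672767, minus strand) was at 4.99, 5.40, 8.44, 7.36 and 4.12 TPM in TubA replicates 1 to 5, and at 4.82, 9.55, 8.92, 5.83 and 7.88 TPM in control replicates 1 to 5. The groups overlapped, with means of 6.06 ± 1.78 TPM in TubA oocytes and 7.40 ± 2.02 TPM in control oocytes (SD, n = 5 each). Its log2 difference was -0.25, with a standard error of 0.28 and a 95% interval from -0.85 to 0.35 (limma, adjusted p = 0.9999). Kpna6-202 carried 98.5% of the mean level. Kpna1 (ENSMUSG00000022905, chr16:35978750-36037131, plus strand) averaged 0.282 ± 0.218 TPM in TubA oocytes and 0.297 ± 0.325 TPM in control oocytes (SD, n = 5 each). Its 10 libraries ran from 0.0184 to 0.843 TPM and were listed under 9 of its 10 annotated transcripts, with Kpna1-201, the largest of them, at 22.2% of the mean, so no single transcript stood for the gene.

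Kpnb1 (ENSMUSG00000001440, chr11:97159714-97187881, minus strand) encodes importin beta, the carrier that all the importin alpha proteins need. It was at 21.1, 14.9, 17.7, 15.9 and 13.1 TPM in TubA replicates 1 to 5, and at 11.5, 13.7, 11.6, 13.5 and 14.9 TPM in control replicates 1 to 5. Of the TubA libraries, 3 lay above all control libraries, and the other 2 lay within the control range. The means were 16.6 ± 3.06 TPM in TubA oocytes and 13.0 ± 1.46 TPM in control oocytes (SD, n = 5 each). The log2 difference was 0.31 with a standard error of 0.21 and a 95% interval from -0.15 to 0.77 (limma, unadjusted p = 0.164, adjusted p = 0.9999), and its fold bounds were 0.904 and 1.71. It was positive in both sets, at 0.50 in set A and 0.12 in set B. The whole signal was listed under Kpnb1-201.

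**Figure D4:**
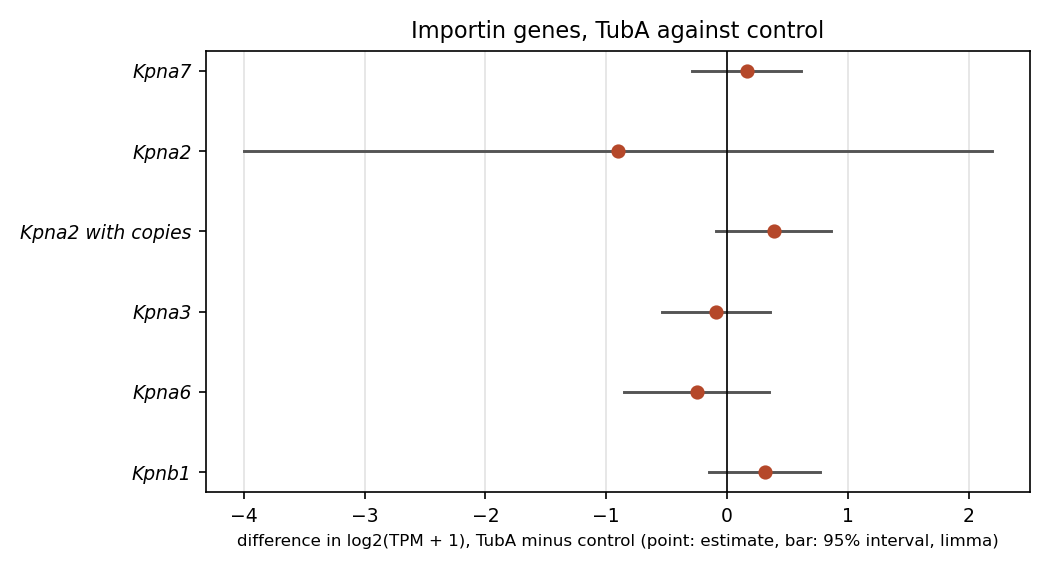
Difference in log2(TPM + 1), TubA minus control, for the 5 importin genes tested and for Kpna2 summed with its copies, with points at the limma estimate and bars for the 95% interval (5 libraries each). Every interval includes 0, and that of Kpna2 alone, from -4.002 to 2.20, is the widest.

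The order of the levels was tested within libraries, over all 21 pairs of members, with an exact two-sided sign-flip permutation test adjusted over the pairs. By mean level it ran Kpna7, Kpna2, Kpna3, Kpnb1, Kpna6, Kpna4 and Kpna1. Kpna7 was above every other member in 10 of 10 libraries (adjusted p = 0.00241, from the smallest p that the test can give, 0.00195, n = 10, exact). The mean log2 ratio of Kpna7, on the TPM + 1 scale, was 3.76 to Kpna3, or 13.5-fold. It was 5.69 to Kpnb1, or 51.5-fold, and 6.74 to Kpna6, or 107-fold. To Kpna4 and Kpna1, which the pseudocount of 1 lifts most, it was 9.08 and 9.31. Kpna2 and Kpna3 did not differ beyond their spread (adjusted p = 0.809, exact), nor did Kpna4 and Kpna1 (adjusted p = 0.185, exact). Kpnb1 stood above Kpna6 in 10 of 10 libraries, by 1.05 on the log2 scale.

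The place of Kpna2 in this order depended on its copies. Alone it was below Kpna7 in all 10 libraries, with a mean log2 ratio of Kpna7 to Kpna2 of 3.55, and below Kpna3 in 3 of them. That mean joins low and high libraries, which ran from 0.99 to 7.72, and it was 5.28 in set A, 1.81 in set B and 5.12 with protein-coding transcripts alone. With its copies the ratio of Kpna7 to Kpna2 was 0.19, Kpna7 was higher in 5 of 10 libraries, and the levels did not differ beyond their spread (adjusted p = 0.293, exact sign-flip permutation test, n = 10). In the same sums Kpna2 was above Kpna3 in 10 of 10 libraries, by 3.56 on the log2 scale.

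Kpna7 made up most of the importin alpha TPM of these oocytes when the copies were left out. Its share was 92.9%, 92.2%, 62.6%, 83.1% and 70.9% in TubA replicates 1 to 5, and 76.3%, 69.9%, 92.9%, 74.98% and 69.5% in control replicates 1 to 5. The 3 libraries above 92% were those with little Kpna2. The means were 80.4 ± 13.3% in TubA oocytes and 76.7 ± 9.53% in control oocytes (SD, n = 5 each, exact two-sided permutation p = 0.595). With the copies included, the share was 49.2 ± 11.2% in TubA oocytes and 52.6 ± 4.49% in control oocytes (exact permutation p = 0.571), so the sign of the difference turned. Without the copies, the difference in share, TubA minus control, was 12.8 percentage points within set A and -0.036 points within set B. The 3 libraries with little Kpna2 all lay in set A, as TubA replicates 1 and 2 and control replicate 3. With the copies, the share in set A was 46.5% and 43.8% in TubA replicates 1 and 2. It was 56.1%, 48.5% and 56.7% in control replicates 1 to 3.

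The summed importin alpha level was 1090 ± 251 TPM in TubA oocytes and 998 ± 112 TPM in control oocytes (SD, n = 5 each, exact two-sided permutation p = 0.492). With the copies it was 1762 ± 182 TPM in TubA oocytes and 1464 ± 281 TPM in control oocytes (SD, n = 5 each, exact permutation p = 0.0952). Neither difference passed the threshold of 0.05. The log2 ratio of summed importin alpha to Kpnb1 was 6.03 ± 0.46 in TubA oocytes and 6.26 ± 0.27 in control oocytes (SD, n = 5 each, exact permutation p = 0.357). In TPM the adaptor genes together thus stood many times above their shared carrier in every library, from 5.57 to 6.68 on the log2 scale. With protein-coding transcripts alone, which leaves out the decay-annotated Kpna2-206, this ratio ran from 5.35 to 6.68. Without the copies, the difference in the log2 ratio to Kpnb1 had opposite signs within the sets, -0.70 in set A and 0.17 in set B. The difference in summed alpha TPM without the copies was -111 within set A. With the copies, the sum in set A was 2014 and 1677 TPM in TubA replicates 1 and 2. It was 1303, 1293 and 1940 TPM in control replicates 1 to 3.

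The rest of the transport machinery was taken from 5 lists, and none of the 59 of their 61 genes that were tested had an adjusted p under 0.05 in either direction or an unadjusted p under 0.05 (limma), against 0.00857% and 2.51% of all genes tested. The median log2 difference, TubA minus control, was -0.0031 for 11 other import receptors, all but Snupn of the importin beta family. It was -0.08 for 6 exportins, -0.0068 for 8 genes of the Ran system, 0.08 for 29 nucleoporins and -0.04 for 5 spindle factors released by Ran. For comparison, it was 0.01 over all genes tested. The 2 most abundant of each list show the upper end of its levels, and other members were far lower, such as the receptor Ipo7 at 1.11 TPM over all libraries. Among the receptors, Ipo8 averaged 232 ± 48.6 TPM in TubA oocytes and 250.1 ± 25.6 TPM in control oocytes, and Tnpo1 81.1 ± 37.4 TPM in TubA oocytes and 103 ± 34.8 TPM in control oocytes. Both were thus above Kpnb1, at 16.6 ± 3.06 TPM in TubA oocytes and 13.0 ± 1.46 TPM in control oocytes (SD, n = 5 each).

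The export side was lower. Xpo6, the exportin of actin, averaged 46.8 ± 12.1 TPM in TubA oocytes and 40.8 ± 8.93 TPM in control oocytes, and Xpo4 11.4 ± 4.79 TPM in TubA oocytes and 11.8 ± 10.1 TPM in control oocytes (SD, n = 5 each). Cse1l, which returns importin alpha to the cytoplasm, averaged 3.93 ± 0.867 TPM in TubA oocytes and 4.72 ± 1.53 TPM in control oocytes. Xpo1, the main exportin of proteins, averaged 3.83 ± 1.39 TPM in TubA oocytes and 4.37 ± 2.39 TPM in control oocytes. Both were far below Kpna7 in every library.

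Ran itself averaged 6.52 ± 5.19 TPM in TubA oocytes and 5.44 ± 2.77 TPM in control oocytes, and ranged from 1.13 to 15.6 TPM over the libraries (SD, n = 5 each). Rcc1, the chromatin-bound exchange factor that loads Ran with GTP, averaged 47.0 ± 11.8 TPM in TubA oocytes and 51.0 ± 10.1 TPM in control oocytes. Nutf2, which imports Ran, averaged 41.0 ± 10.003 TPM in TubA oocytes and 39.9 ± 19.5 TPM in control oocytes, but 43.6% of its 31-base words occur in other listed genes, so its level is uncertain. Of the nucleoporins, Sec13, which also serves vesicle coats, averaged 1222 ± 132 TPM in TubA oocytes and 1063 ± 83.6 TPM in control oocytes. Nup37 averaged 400 ± 95.4 TPM in TubA oocytes and 378 ± 97.2 TPM in control oocytes. Among cargoes, Tpx2 averaged 271 ± 45.3 TPM in TubA oocytes and 217 ± 37.6 TPM in control oocytes (log2 difference 0.32, limma, unadjusted p = 0.0982, adjusted p = 0.9999). Nusap1 averaged 265 ± 88.4 TPM in TubA oocytes and 262 ± 52.8 TPM in control oocytes. All 4 were within the spread between libraries by the limma test above.

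The genes whose level followed that of Kpna7 most closely were Uba2, Atg16l1 and Mybl2. Likeness was the SD of the log2 ratio to Kpna7 over the 10 libraries, among 1502 genes that averaged 100 TPM or more. Members, pseudogenes and loci with Gm, Rik or clone names were left out, and the median SD was 0.487. The SD was 0.109 for Uba2, a subunit of the SUMO-activating enzyme, 0.166 for Atg16l1, an autophagy protein, and 0.174 for Mybl2, a transcription factor of dividing cells. Uba2 was at 144, 124, 97.8, 163 and 145 TPM in TubA replicates 1 to 5, and at 124, 101, 197, 109 and 116 TPM in control replicates 1 to 5. Like Kpna7, it was highest in TubA replicate 4 among the TubA libraries and in control replicate 3 among the control libraries. Its selection by likeness over these same libraries favours such a match, which is therefore no separate result. Of the words of Mybl2, 21.05% occur in other listed genes.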

How the data were processed

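Each of 10 single-oocyte libraries, 5 per group, had a table of 1 value per Ensembl transcript. The deposited values are TPM, read as such because each library sums to 1000000; which program and annotation produced them is not given in the sources used here. Bowtie 0.12.2 and mm10 are named in the submitters' processing notes. Transcripts were named with GENCODE M21 (GRCm38) and summed per gene; 113492 matched and 1778, holding 0.531% to 0.753% of TPM per library, did not. The strand of the libraries is not stated, so overlapping genes on opposite strands cannot be told apart.

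Genes that averaged 1 TPM or more were tested on log2(TPM + 1) with limma 3.58.1 (trend and robust moderation) in R 4.3.3, with Benjamini-Hochberg adjustment over all of them at 0.05; a pseudocount of 1 understates changes of low genes. The same fit was tested on simulated data. Single values per library had exact permutation tests over 252 assignments, whose smallest p is 0.0079. Copies are annotated genes holding at least 20% of a member's 31-base words.

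The members, lists and alternatives were chosen with earlier results of these data known. Named besides the members were the 2 most abundant genes of each list, Ran, Cse1l, Tpx2, Xpo1, the 3 genes most like Kpna7, and markers. Same-numbered libraries were checked for pairing; alternatives covered the pseudocount, filter, scaling, library weights, transcripts counted, copies, library sets, the replicate block and leaving out each library. No 2 libraries held identical values.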

Additional observations from a re-analysis of the deposited data

Results flagged for a closer look

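Of 24 groups of 5 libraries examined for a library far from the others, 2 held one, and chance alone gives about 5% of groups. Control replicate 3 had the highest Kpna7 level of its group, 1099 TPM, and its gap to the next control library was 0.779 of the range of the group, above Dixon's critical value of 0.71. The same library was 1 of the 3 with little Kpna2, and without it the log2 difference in Kpna7 was 0.30 (limma, adjusted p = 0.9998). TubA replicate 4 had the lowest sum of Kpna2 and its copies in its group, 465 TPM, with a gap of 0.723 of the range, and it was also the TubA library with the highest Kpna7 level. What sets these libraries apart was not tested.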

How the results depend on the processing

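Of 296 values of 16 results under the alternatives, 284 kept their direction and their side of the threshold, or moved by less than 1 SD where there was no test. In every alternative, 0 importin genes passed the adjusted threshold (limma). Summing Kpna2 with its copies turned its log2 difference to 0.38 and that in the Kpna7 share to -3.38 percentage points, and took the log2 ratio of Kpna7 to Kpna2 to 0.19, no longer past the threshold; by construction these sums include the copies. The cause of the other changes was not tested: in set B alone Kpna2 turned to 0.32, the summed alpha difference moved to -111 TPM in set A, and the log2 alpha to Kpnb1 difference to -0.70 in set A and 0.17 in set B. The 1 gene called among all genes became 12 in set A and 0 in set B, under a filter at 5 TPM, with protein-coding transcripts alone and with the replicate block.

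Leaving out 1 library at a time gave log2 differences of 0.04 to 0.30 for Kpna7, -1.93 to -0.03 for Kpna2, -0.21 to -0.04 for Kpna3, -0.37 to -0.14 for Kpna6 and 0.22 to 0.39 for Kpnb1. The Kpna7 share difference ran from 0.490 to 8.05 points, that in summed alpha from 3.27 to 166 TPM, that in the alpha to Kpnb1 ratio from -0.36 to -0.11, and the ratio of Kpna7 to Kpna2 from 3.08 to 3.83. None of these passed or lost a threshold. Same-numbered libraries deviated together for numbers 4 and 5 (correlations of deviations 0.48 and 0.26) but not for numbers 1 to 3 (-0.31 to 0.0031), so the numbers were not taken as pairs. With the replicate block the Kpna7 difference was 0.16 and no importin call changed. TPM without depth, and copies that share most of their sequence with Kpna2, limit what can be said of Kpna1, Kpna4 and Kpna2.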
